A study of Mus musculus with 12 samples.

Results

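Ptprt, Sspo, Mamdc2 and Prr32 are 4 protein-coding genes of the 56287 entries in a table of RNA sequencing counts from L929, an established mouse fibroblast line. They were chosen by gene name, as genes outside immune function whose counts were most raised by AOA in cells given DNA. The values that chose them were the levels in the HT-DNA+AOA and HT-DNA libraries, so the difference between those groups is given below as a description, with no test. The deposited annotation assigns no KEGG pathway to any of the 4, and they lie on 4 chromosomes: Ptprt (ENSMUSG00000053141) on chromosome 2, Sspo (ENSMUSG00000029797) on chromosome 6, Mamdc2 (ENSMUSG00000033207) on chromosome 19 and Prr32 (ENSMUSG00000037086) on chromosome X.

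The 12 libraries form 4 groups of 3, all of wild-type L929 cells. HT-DNA is a DNA that was transfected with a Lipofectamine reagent and left on the cells for 6 h, at a stated dose of 0.5 whose unit is garbled and was read as µg per ml. The mock group received no HT-DNA, and the labels do not say whether it received the transfection reagent. The HT-DNA group received the DNA alone. The HT-DNA+AOA group also received 0.5 mM AOA from 1 h before the DNA, and the HT-DNA+AOA+Asp group received the DNA, the same AOA and 20 mM Asp. AOA commonly stands for aminooxyacetate, which inhibits aminotransferases, the enzymes that move amino groups between amino acids and keto acids, and Asp for aspartate, an amino acid that such enzymes make. The labels spell out neither. Every library with AOA also had HT-DNA, and no group with AOA or Asp alone was analysed here. Nothing states that replicates were separate cultures, so the spread behind each p-value is that of these samples and may be technical in origin.

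The 4 proteins have little in common. Ptprt is a receptor-type protein tyrosine phosphatase of the plasma membrane. Its outer part carries MAM and fibronectin type III domains and can bind the same protein on a neighbouring cell, and its inner part removes phosphate from tyrosines. In human cells its substrates include the transcription factor STAT3, and in the body the gene is best known from the nervous system. Sspo encodes SCO-spondin, a very large secreted glycoprotein with thrombospondin repeats. The subcommissural organ of the brain releases it into the cerebrospinal fluid, where it builds Reissner's fibre. Mamdc2 encodes a secreted matrix protein made of MAM domains, the only kind of domain that it shares with Ptprt in the deposited annotation. Prr32 encodes a small proline-rich protein with a domain of unknown function.

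The starts of the genes are shown because a common pattern of levels across groups could be set against the promoter letters. RefSeq (GRCm38.p6) promoter windows, 250 bases before to 50 bases after the annotated start, were found for 3 of the 4, and Mamdc2 had no entry. Capitals mark matches to any of 11 motifs, searched on both strands. The windows are chr2:162661098-162661397 on the minus strand for Ptprt, chr6:48447924-48448223 on the plus strand for Sspo and chrX:45090654-45090953 on the plus strand for Prr32, each written 5′ to 3′.
Ptprt: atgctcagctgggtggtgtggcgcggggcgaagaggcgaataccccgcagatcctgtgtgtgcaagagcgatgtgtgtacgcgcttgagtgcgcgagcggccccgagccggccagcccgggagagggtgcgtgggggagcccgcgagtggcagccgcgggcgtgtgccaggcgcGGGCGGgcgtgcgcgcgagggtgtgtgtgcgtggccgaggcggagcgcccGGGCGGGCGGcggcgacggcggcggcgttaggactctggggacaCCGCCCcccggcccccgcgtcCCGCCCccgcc
Sspo: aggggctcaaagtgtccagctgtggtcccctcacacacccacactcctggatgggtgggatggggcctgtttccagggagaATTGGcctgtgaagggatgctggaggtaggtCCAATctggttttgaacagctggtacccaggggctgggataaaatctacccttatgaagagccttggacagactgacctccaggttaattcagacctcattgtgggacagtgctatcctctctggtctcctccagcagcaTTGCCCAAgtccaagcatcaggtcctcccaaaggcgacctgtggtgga
Prr32: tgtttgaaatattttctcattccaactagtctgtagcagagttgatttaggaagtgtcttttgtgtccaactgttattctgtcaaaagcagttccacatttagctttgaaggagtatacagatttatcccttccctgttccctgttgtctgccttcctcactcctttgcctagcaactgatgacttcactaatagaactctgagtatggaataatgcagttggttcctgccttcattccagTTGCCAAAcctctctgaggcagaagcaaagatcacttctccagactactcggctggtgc

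The 3 windows differ in base composition. The Ptprt window had 77.3% G and C and 46 CG dinucleotides, and 98.4% of the 32851 promoters in the table had fewer CG. The windows of Sspo (55.3% G and C) and Prr32 (42.7%) each held 1 CG, and only 5.43% of promoters had fewer, against a median of 52.7% G and C and 7 CG. Ptprt's capitals are 5 GC boxes (GGGCGG on either strand, some of which overlap), a motif found in 35.7% of promoters. Sspo's are 2 CCAAT boxes (CCAAT, in 37.4% of promoters) and 1 match to the core of a C/EBP site (TTNNGCAA, in 10.8%), the motif of a family of leucine zipper factors. Prr32's single match is to that same C/EBP core. None of the 11 motifs matched all 3 windows. The other motifs had no match in any of the 3: AP-1 (TGANTCA, in 7.81% of promoters), the cyclic AMP response element (TGACGTCA, 1.79%), the C/EBP-ATF composite core (TGATGNAA, 3.97%), the interferon-stimulated response element core (3.44%), the STAT or GAS site (TTCNNNGAA, 8.30%), the NF-kB core (1.47%), the E-box (CACGTG, 7.15%) and the TATA box (TATAAA, 13.6%). A match is a stretch of letters and not a shown binding site, and a missing match says only that those letters are not in the window.

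Library totals lay between 19944571 and 27309291 estimated counts. The 4 genes were rarely counted outside HT-DNA+AOA: in the other 9 libraries each had 5 to 54 counts, and in the HT-DNA+AOA libraries 120 to 289. No gene of the 4 was at 0 in any library, and all 4 passed the filter on low counts, also when the HT-DNA+AOA libraries were left out of it. Levels are given below as per-million counts (CPM) after TMM scaling of the library sizes. In bulk RNA, more cells with a transcript and more transcript per cell cannot be told apart.

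Ptprt stood at 0.444, 0.565 and 0.736 CPM in the mock libraries and at 0.190, 0.538 and 0.500 CPM in HT-DNA. It stood at 6.03, 7.38 and 6.95 CPM in HT-DNA+AOA and at 0.514, 0.393 and 0.490 CPM in HT-DNA+AOA+Asp. The 3 HT-DNA+AOA libraries were far above the other 9, which overlapped with one another. The group means were 0.581 ± 0.147, 0.410 ± 0.191, 6.79 ± 0.689 and 0.466 ± 0.0641 CPM (SD, n = 3) in that order. The 5 counts in HT-DNA replicate 1 were the fewest of any of the 4 genes, so the low end of the Ptprt range rests on very few reads.

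Sspo, the fibre glycoprotein, stood at 0.621, 0.695 and 0.658 CPM in mock and at 0.304, 0.538 and 0.850 CPM in HT-DNA. With AOA it stood at 7.37, 6.65 and 7.58 CPM, and with AOA and Asp at 0.468, 0.442 and 0.408 CPM. The HT-DNA libraries were spread on both sides of the mock libraries, whereas the 3 libraries with Asp all lay below mock. The group means were 0.658 ± 0.0369, 0.564 ± 0.274, 7.20 ± 0.492 and 0.439 ± 0.0298 CPM (SD, n = 3).

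Mamdc2, the matrix protein, stood at 2.09, 1.78 and 2.09 CPM in mock, at 0.989, 1.46 and 0.500 CPM in HT-DNA. It stood at 10.9, 11.1 and 11.2 CPM in HT-DNA+AOA and at 0.842, 0.737 and 1.18 CPM in HT-DNA+AOA+Asp. Its mock libraries were above every HT-DNA and every HT-DNA+AOA+Asp library, and the latter groups overlapped. The group means were 1.99 ± 0.177, 0.984 ± 0.481, 11.1 ± 0.145 and 0.921 ± 0.234 CPM (SD, n = 3).

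Prr32, the proline-rich protein, stood at 1.11, 0.999 and 1.05 CPM in mock and at 0.799, 0.654 and 1.00 CPM in HT-DNA. It stood at 5.98, 8.18 and 7.77 CPM in HT-DNA+AOA and at 0.842, 0.442 and 0.531 CPM in HT-DNA+AOA+Asp. The HT-DNA libraries reached up to the mock range and the libraries with Asp did not. The group means were 1.05 ± 0.0554, 0.818 ± 0.174, 7.31 ± 1.17 and 0.605 ± 0.210 CPM (SD, n = 3).

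**Figure D1:**
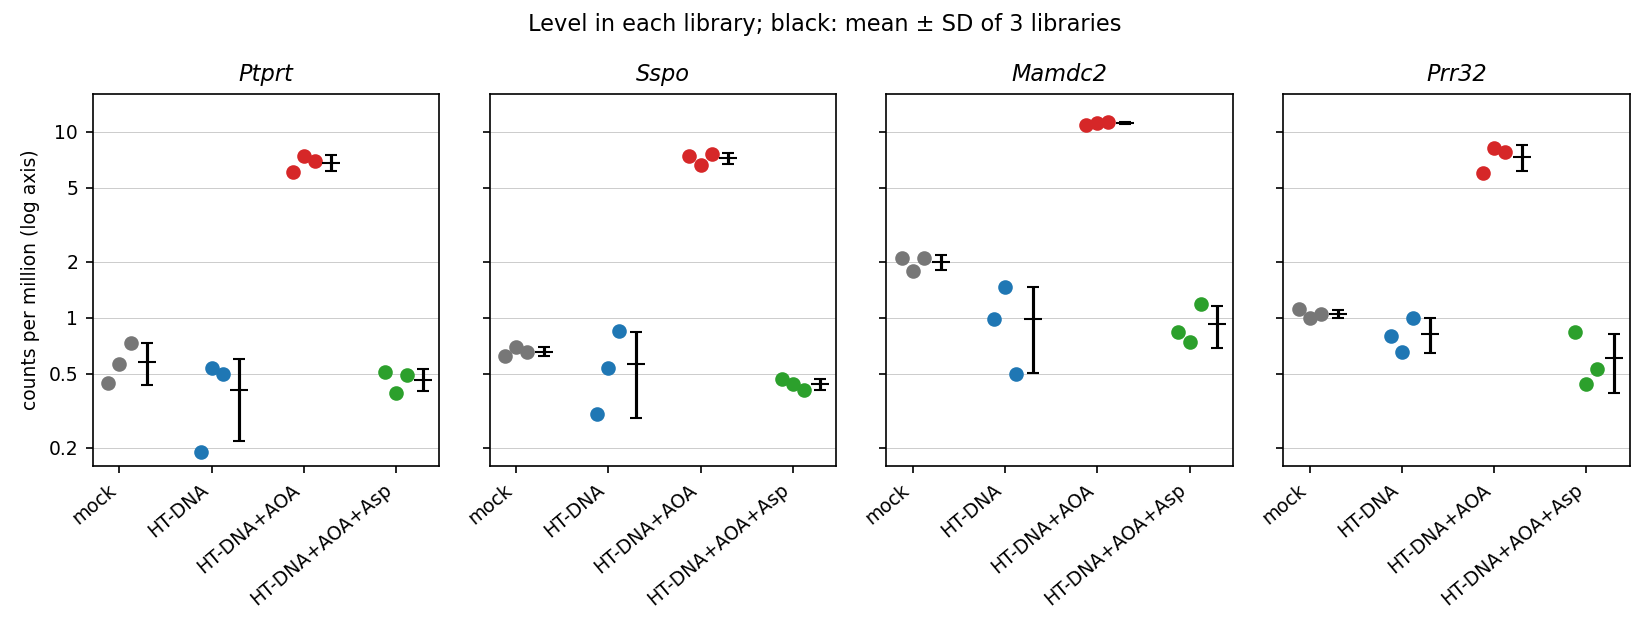
Level of each gene in each library in CPM on a log axis, by group, with the group mean ± SD of 3 libraries in black. The HT-DNA+AOA libraries lie between 5.98 and 11.2 CPM, and the other 9 libraries of each gene lie at or below 2.09 CPM.

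Because the transcripts differ in length, levels between genes were compared per kilobase of the length that the authors' table gives (6623 bases for Ptprt, 15571 for Sspo, 3414 for Mamdc2 and 1110 for Prr32). Per kilobase, the mean level in HT-DNA+AOA was 6.58 CPM for Prr32, 3.24 for Mamdc2, 1.02 for Ptprt and 0.463 for Sspo. The order was the same in mock, at 0.947, 0.582, 0.0878 and 0.0423 CPM per kilobase. Per length, Prr32 was thus the most abundant of the 4 transcripts in both groups, and the long SCO-spondin transcript the least.

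Set against HT-DNA alone, AOA went with levels that were higher by 4.06 on the log2 scale for Ptprt (SE 0.26, 16.7-fold), 3.71 for Sspo (SE 0.24, 13.1-fold), 3.44 for Mamdc2 (SE 0.21, 10.9-fold) and 3.17 for Prr32 (SE 0.22, 9.03-fold). The 95% intervals of neighbours in that order overlapped, from 3.51 to 4.61 for Ptprt down to 2.71 to 3.63 for Prr32. For all 4 genes the HT-DNA+AOA libraries were above every HT-DNA library, as were those of 28.4% of the 14694 genes tested, and nothing is read from that count because this difference chose the genes. The median log2 fold change of all genes tested was 0.00. By fold change the 4 ranked 11, 18, 20 and 26 of 14694. Among the 9684 genes with at least 5 CPM in the higher of the 2 groups and a named symbol rather than a clone number, they held places 1, 3, 4 and 5. The chemokine gene Cxcl2 held place 2, at 3.98. Just outside the 4 came the chemokine gene Cxcl1 at 3.01 and Dnah14, an axonemal dynein heavy chain gene, at 2.96, against 3.17 for Prr32 just inside.

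**Figure D2:**
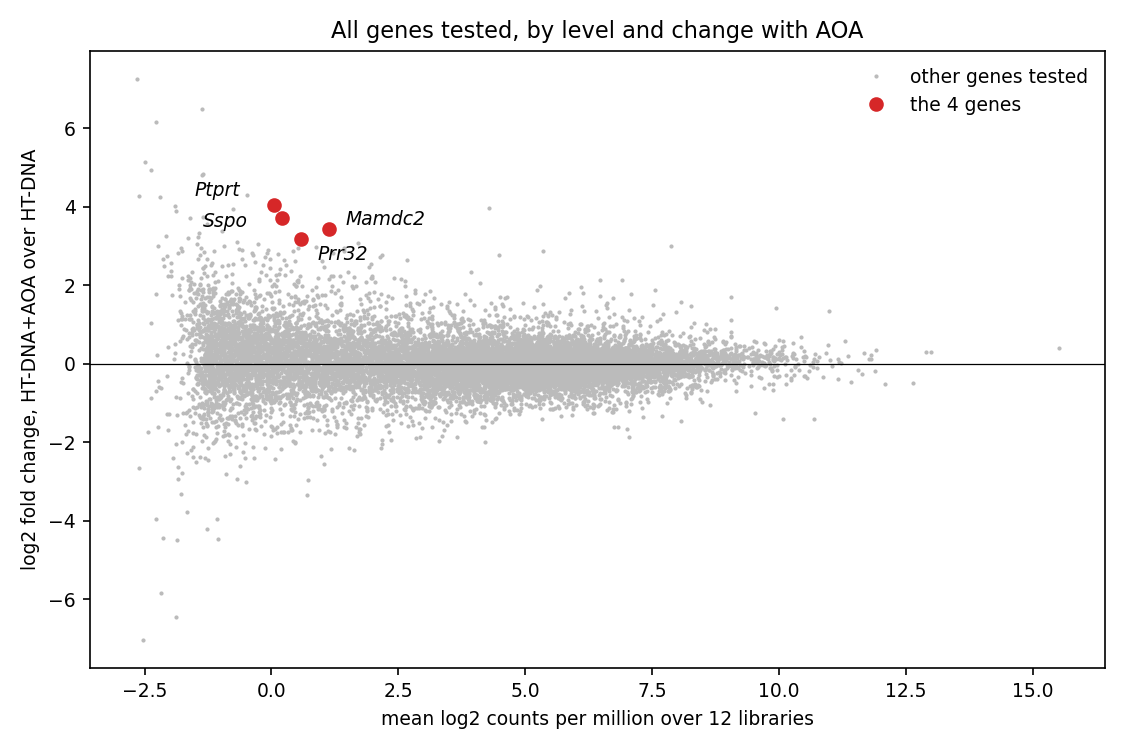
Every gene tested, by mean log2 CPM over the 12 libraries (x axis) and log2 fold change of HT-DNA+AOA over HT-DNA (y axis), with the 4 genes in red. The 4 lie between 3.17 and 4.06 at low mean levels, where the grey cloud of other genes is also widest.

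With Asp added to AOA, the levels were lower than with AOA alone for all 4 genes. The log2 fold change of HT-DNA+AOA+Asp over HT-DNA+AOA was −3.85 for Ptprt (SE 0.26), −4.02 for Sspo (SE 0.25), −3.56 for Mamdc2 (SE 0.22) and −3.59 for Prr32 (SE 0.23). The 3 libraries with Asp were below the 3 without it for all 4 genes, as they were for 30.3% of the genes tested. This comparison shares the HT-DNA+AOA libraries with the one that chose the genes, so it too is a description.

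After AOA and Asp together the levels were near those of HT-DNA alone. The HT-DNA libraries also took part in the choice of the genes, so this comparison is a description as well. The log2 fold change of HT-DNA+AOA+Asp over HT-DNA was 0.21 for Ptprt (95% interval −0.56 to 0.98), −0.31 for Sspo (−1.02 to 0.40), −0.12 for Mamdc2 (−0.71 to 0.47) and −0.41 for Prr32 (−1.03 to 0.20). The groups overlapped for all 4 genes, whereas they did not for 17.8% of all genes tested on the lower side and 19.6% on the higher. The intervals leave room for differences of up to about 1 on the log2 scale, and the sign for Ptprt, Sspo and Mamdc2 depended on single libraries. Without HT-DNA replicate 1 the value for Ptprt was −0.15, without HT-DNA replicate 3 that for Sspo was 0.06, and for Mamdc2 it was 0.27 without HT-DNA replicate 2 and 0.01 without HT-DNA+AOA+Asp replicate 2.

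The mean level in HT-DNA alone was below that in mock for each of the 4 genes. The choice of genes favoured low values in these HT-DNA libraries. The comparison is therefore a description, and nothing is read from the shared direction. The log2 fold change of HT-DNA over mock was −0.54 for Ptprt (95% interval −1.27 to 0.19), −0.27 for Sspo (−0.92 to 0.38), −0.97 for Mamdc2 (−1.48 to −0.45) and −0.38 for Prr32 (−0.93 to 0.17). Only for Mamdc2 were the HT-DNA libraries all below mock, as they were for 24.5% of genes tested. These values move with single HT-DNA libraries: without HT-DNA replicate 1 that for Ptprt was −0.17 and that for Sspo 0.04. Mamdc2 stood at −1.37 without HT-DNA replicate 2 and at −0.70 without HT-DNA replicate 3. For scale, Cxcl10, an interferon-induced chemokine gene, was higher by 7.80 (SE 0.19) in the same comparison, and Cxcl1 and Cxcl2 stood at −0.02 and −0.15. With AOA these 3 chemokine genes were higher than in HT-DNA by 2.35, 3.01 and 3.98, and the comparisons share the HT-DNA libraries. Set against mock, the HT-DNA+AOA libraries were higher by 3.52 for Ptprt, 3.44 for Sspo, 2.47 for Mamdc2 and 2.80 for Prr32. There was no overlap for any of the 4, as for 32.1% of genes tested. Nothing is read from that count, because the HT-DNA+AOA libraries also chose the genes.

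**Figure D3:**
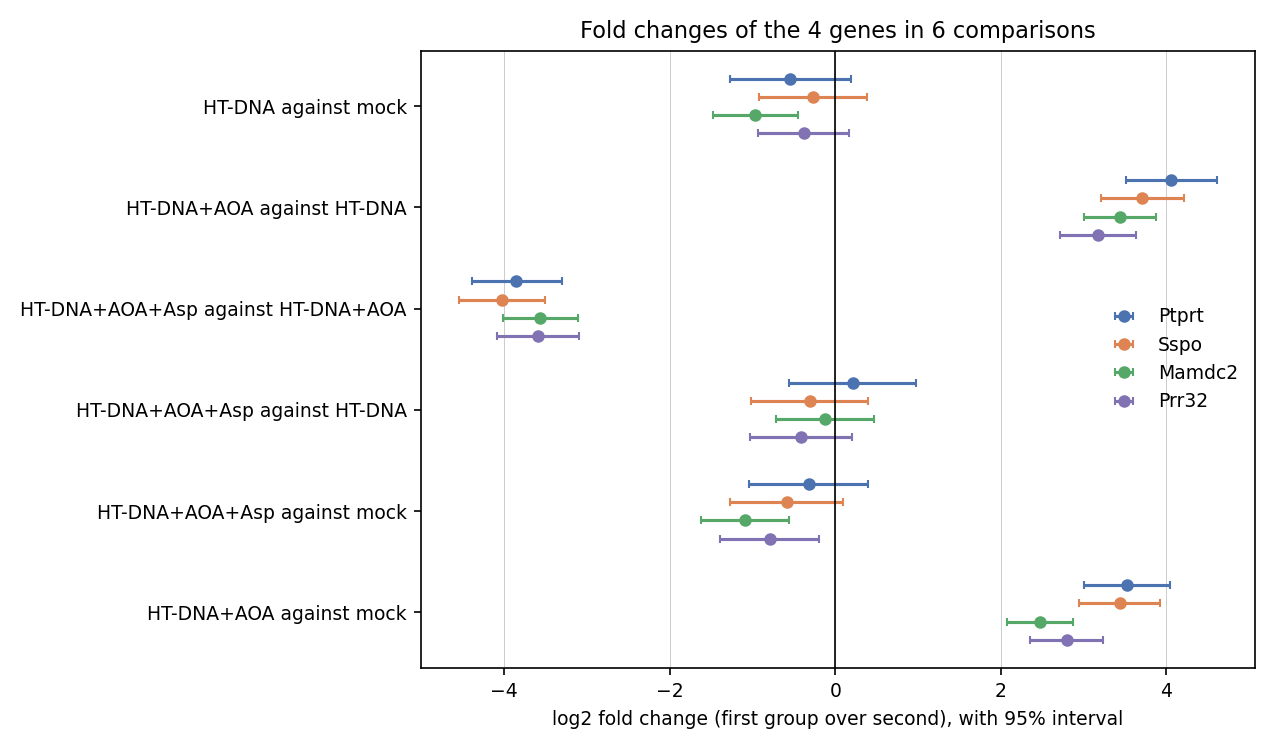
Log2 fold change of each of the 4 genes in the 6 comparisons of groups, with 95% intervals. The estimates are 2.47 to 4.06 for HT-DNA+AOA over mock or HT-DNA and −4.02 to −3.56 when Asp was added, and the intervals include 0 for all 4 genes when HT-DNA+AOA+Asp is set against HT-DNA.

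A single comparison has no library that chose the genes in its means, HT-DNA+AOA+Asp against mock, and there the 4 genes could be tested. The spread was still estimated from all 12 libraries, so those that chose the genes enter the p-values through it. Mamdc2 fell, by 1.09 on the log2 scale (SE 0.26, 2.13-fold lower, adjusted p = 0.00217 in edgeR's quasi-likelihood test with Benjamini-Hochberg adjustment over all genes), and all 3 libraries with Asp were below all 3 mock libraries. Over 19 alternative settings, Mamdc2 kept its call in each, with adjusted p between 4.93e-05 and 0.0168 in edgeR or DESeq2. Prr32 also fell, by 0.79 (SE 0.28, edgeR adjusted p = 0.0356), and its groups did not overlap. That call was lost in 8 of the 19 settings (edgeR or DESeq2 adjusted p from 0.0136 to 0.142), among them the fits without mock replicate 1 (0.0822), 2 (0.0577) or 3 (0.0667) and without HT-DNA+AOA+Asp replicate 2 (0.142) or 3 (0.120). Sspo stood at −0.58 (95% interval −1.27 to 0.10, edgeR adjusted p = 0.189) with no overlap, and Ptprt at −0.32 (−1.04 to 0.40, adjusted p = 0.514) with overlap. Of the 4 genes, 2 were thus called lower, where 15.0% of all genes tested were called lower, and for 3 of the 4 the groups did not overlap, with mock higher, as for 21.8% of all genes. Whether the 4 genes differed from one another in this comparison was not tested.

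Across the 12 libraries the 4 genes tracked one another, as the choice of genes fixes. Pearson's r of log2 CPM ran from 0.919 (Sspo and Mamdc2) to 0.985 (Ptprt and Sspo). Over the 9 libraries outside HT-DNA+AOA it was 0.13 for Sspo and Mamdc2 and 0.71 for Ptprt and Sspo, with the other 4 pairs between. These correlations are descriptions over libraries that share groups, and outside HT-DNA+AOA they rest on few counts.

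The genes with the most similar pattern to each of the 4 were found by the same r, over genes with at least 1 CPM in their highest group. For Ptprt they were Gvin-ps7 (r = 0.993), Rab11fip1 (0.986), Sspo (0.985), Foxred1 (0.984) and Lcn2 (0.981). For Sspo they were Map4k4 (0.992), Lcn2 (0.988), Ncoa4 (0.986), Ptprt (0.985) and Gvin-ps7 (0.984). Ptprt and Sspo were thus each among the 5 genes most similar to the other, and both shared Lcn2, which encodes lipocalin 2, an iron-sequestering secreted protein, and Gvin-ps7, a pseudogene of the very large interferon-inducible GTPases. Lcn2 stood at 27.3, 25.0, 184 and 22.1 CPM in mock, HT-DNA, HT-DNA+AOA and HT-DNA+AOA+Asp, so it too was highest with AOA.

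Mamdc2 had other companions, and none of its 5 was in the list of another of the 4 genes. They were Mmp11 (r = 0.982), H2-Q4 (0.979), Dusp4 (0.977), Emp2 (0.974) and Slc31a1 (0.971), of which Mmp11 encodes a matrix metalloproteinase and Dusp4 a phosphatase of MAP kinases. Mmp11 stood at 42.5, 37.0, 60.6 and 37.0 CPM in mock, HT-DNA, HT-DNA+AOA and HT-DNA+AOA+Asp. For Prr32 the most similar were Gvin2 (0.989), Cxcl1 (0.987), Gch1 (0.986), Soat2 (0.986) and Map4k4 (0.986). Gch1, the first enzyme of tetrahydrobiopterin synthesis, stood at 31.8, 26.1, 97.2 and 24.0 CPM in the 4 groups. In all, 17 different genes filled these lists, 15 of them not among the 4. Their log2 fold changes with AOA over HT-DNA ran from 0.34 to 4.06, so r picked out the shape of the pattern and not its size. Gvin and H2 genes have near-identical copies whose reads the counting could split, so their values are uncertain.

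**Figure D4:**
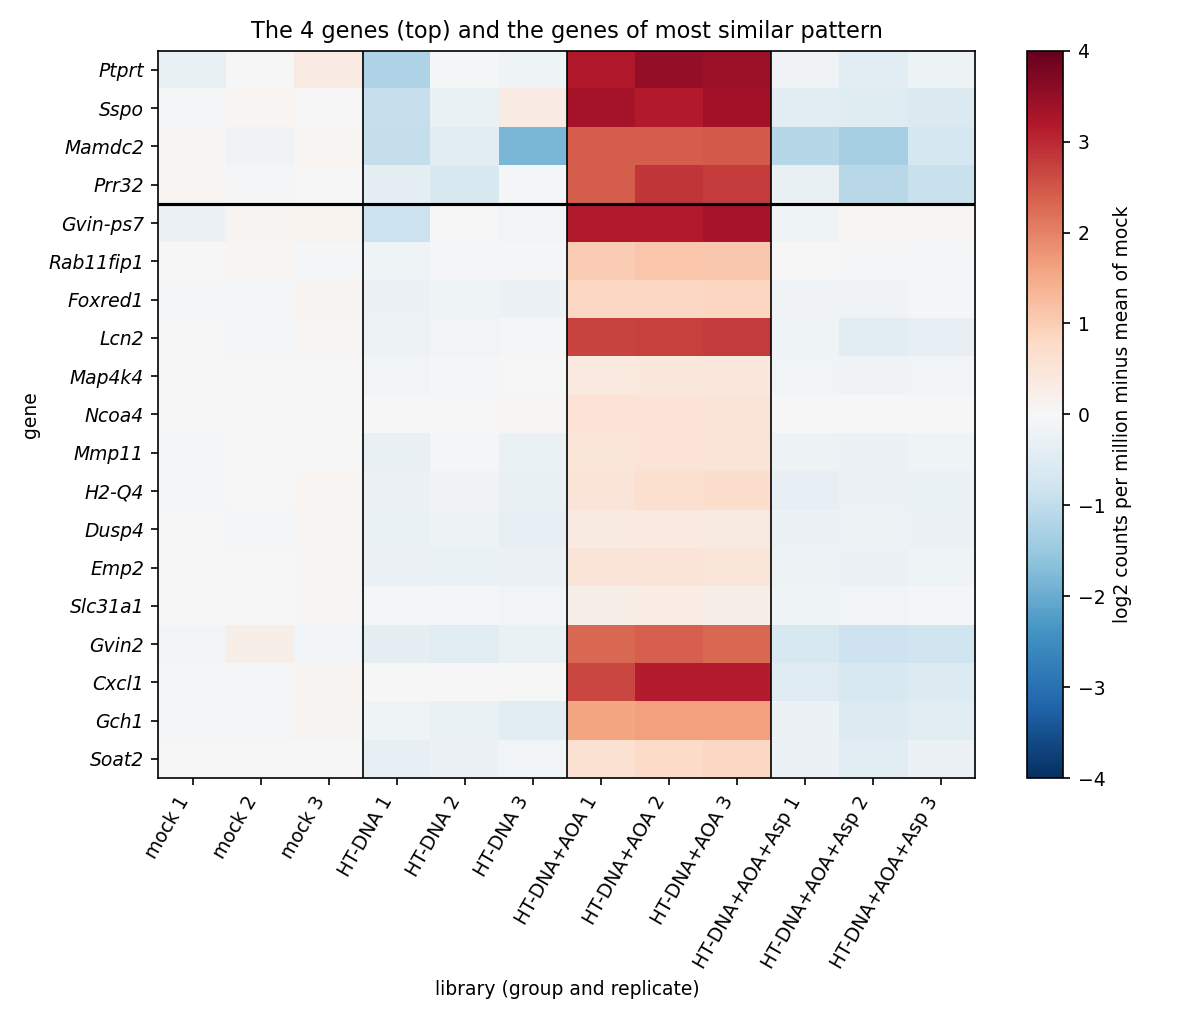
Log2 CPM minus the mock mean (colour) in each of the 12 libraries for the 4 genes (top) and the 15 genes most similar to them. In all rows the 3 HT-DNA+AOA libraries are the highest, with fold changes over HT-DNA between 0.34 and 4.06 on the log2 scale.

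The other receptor-type tyrosine phosphatase genes moved in both directions with AOA. Of 19 in the table, 8 passed the filter. With AOA over HT-DNA, 2 rose, 2 fell and 4 did not pass (median log2 fold change 0.09), where 52.0% of all genes were called. Ptprq rose from 12.2 ± 1.08 to 16.7 ± 0.295 CPM (SD, n = 3, log2 fold change 0.45, edgeR adjusted p = 0.000134). Ptpre fell from 15.6 ± 0.822 to 11.2 ± 1.67 CPM (−0.48, edgeR adjusted p = 0.000414), and Ptpra from 84.1 ± 1.80 to 67.5 ± 4.44 CPM (−0.32, edgeR adjusted p = 2.72e-05). Among the closest paralogues of Ptprt, Ptpru stood at 7.14 CPM in HT-DNA and 7.73 CPM with AOA (0.11, edgeR adjusted p = 0.372), and Ptprk and Ptprm had 3 and 5 counts over all 12 libraries and were not tested.

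STAT3 is the substrate for which the human Ptprt protein is best known, so genes of its pathway were listed. Of the 23 listed genes in the data, 22 were tested, and with AOA over HT-DNA 11 rose, 5 fell and 6 did not pass (median 0.13), where 25.5% of all genes rose and 26.5% fell. Il6, the gene of the cytokine interleukin 6, rose from 0.406 ± 0.160 to 2.04 ± 0.613 CPM (SD, n = 3, log2 fold change 2.34, edgeR adjusted p = 1.42e-05). Lif, which encodes another cytokine that signals through the same gp130 receptor chain, rose from 13.0 ± 0.799 to 40.2 ± 9.91 CPM (1.64, edgeR adjusted p = 1.21e-06). Cebpd, the gene of a C/EBP transcription factor, rose from 10.0 ± 2.16 to 28.8 ± 6.40 CPM (1.52, edgeR adjusted p = 0.000124). Stat3 itself, named after its values were seen, rose from 114 ± 2.69 to 137 ± 3.77 CPM (0.26, edgeR adjusted p = 1.54e-05). Jak2, Tyk2, Pias3 and Socs3 were also named after their values were seen. Jak2 was among the 11 that rose (1.00, edgeR adjusted p = 2.55e-10). Tyk2 (−0.84, edgeR adjusted p = 8.06e-10) and Pias3 (−0.64, 4.29e-07) were among the 5 that fell, and Socs3 did not pass (−0.27, 0.0823). With Asp added to AOA, 15 of the 22 fell and 4 rose (median −0.32), where 26.4% of all genes fell and 28.3% rose, and this comparison again shares the HT-DNA+AOA libraries. Set against mock after both agents, 7 were higher and 9 lower, beside 18.9% and 15.0% of all genes. These are RNA levels, and the phosphorylation of STAT3 was not measured here.

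Genes with the MAM domain of Ptprt and Mamdc2 numbered 16 in the table, of which 4 were tested. With AOA over HT-DNA 2 rose, 0 fell and 2 did not pass (median 0.28), a share near the 52.0% of all genes called in either direction. Nrp2, a neuropilin that binds semaphorins and VEGF, rose from 307 ± 16.1 to 461 ± 24.2 CPM (SD, n = 3, log2 fold change 0.59, edgeR adjusted p = 7.53e-10), and Zan, the gene of the sperm protein zonadhesin, from 4.63 ± 0.362 to 6.28 ± 0.356 CPM (0.44, edgeR adjusted p = 0.0116). In mock, Nrp2 stood at 395 CPM and Zan at 7.12 CPM. Without HT-DNA replicate 2 only 1 of the 4 was called. With Asp added, 1 of the 4 was called lower (Nrp2, −0.18), where 26.4% of all genes fell. Nrp2 then stood at 407 CPM, beside 307 CPM in HT-DNA. No p-value is given for that fall, because Nrp2 was named for its change with AOA. Both comparisons use the same HT-DNA+AOA libraries.

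Genes with the thrombospondin type 1 repeat of SCO-spondin also moved in both directions. Of the 28 listed genes in the data, 15 were tested, and 2 rose, 6 fell and 7 did not pass (median −0.11), where 25.5% of all genes rose and 26.5% fell. Ccn4, a matricellular gene downstream of Wnt signalling, rose from 33.6 ± 2.50 to 82.2 ± 6.05 CPM (SD, n = 3, log2 fold change 1.29, edgeR adjusted p = 3.20e-13). Cfp, which encodes the complement factor properdin, fell from 11.2 ± 0.596 to 4.13 ± 0.339 CPM (−1.44, edgeR adjusted p = 4.85e-08), and Spon2, a secreted matrix protein gene, from 6.08 ± 0.506 to 2.59 ± 0.570 CPM (−1.22, edgeR adjusted p = 1.06e-06). When Asp was added to AOA, the log2 fold changes were −1.23 for Ccn4, 1.70 for Cfp and 0.86 for Spon2. They are given without a test, because these 3 genes were named for their change with AOA and both comparisons use the same HT-DNA+AOA libraries. Proline-rich protein genes are related to Prr32 by name only. With AOA over HT-DNA, 3 rose, 3 fell and 4 did not pass of the 10 tested (median −0.19). This is near the 25.5% of all genes that rose and the 26.5% that fell. Prr14l rose by 1.81 (edgeR adjusted p = 0.000464), from 3.19 to 11.2 CPM, and stood at 9.21 ± 3.60 CPM in mock. Prr18 rose by 1.17 (edgeR adjusted p = 7.19e-05), and Prr11 fell by 0.86 (8.16e-10).

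**Figure D5:**
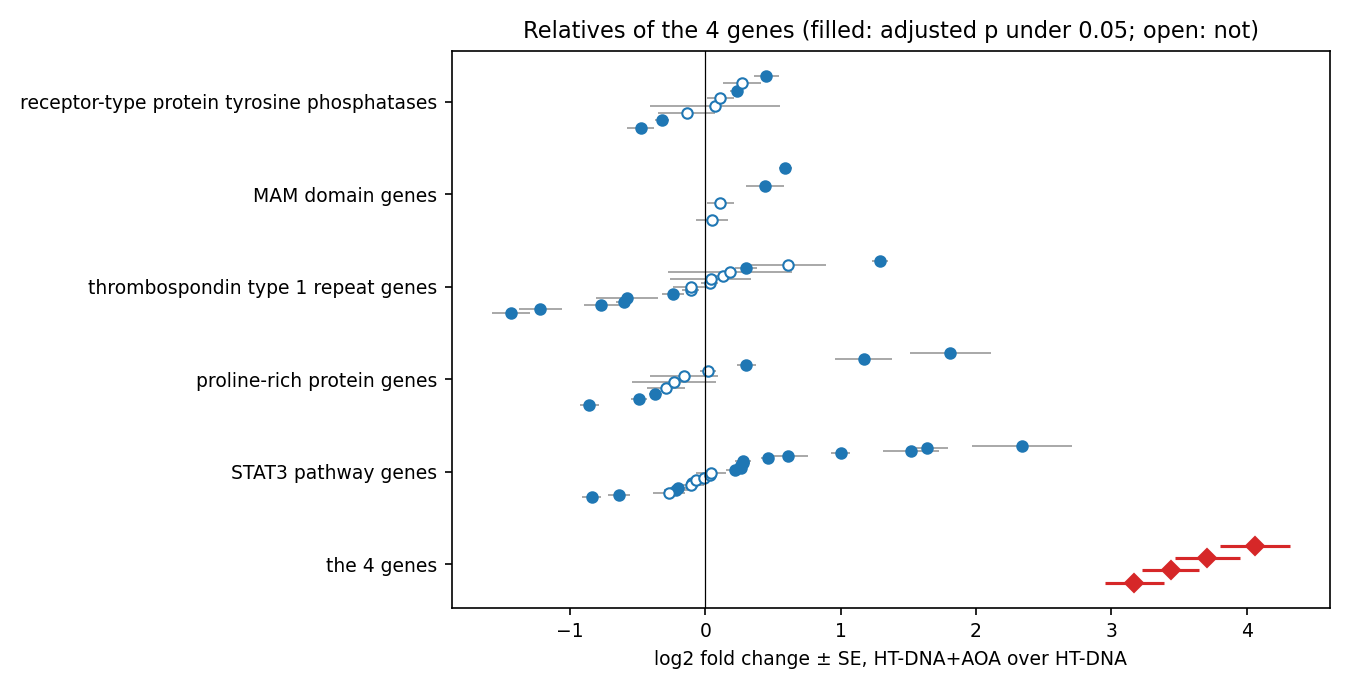
Log2 fold change ± SE of HT-DNA+AOA over HT-DNA for the tested genes of 5 lists of relatives (blue, filled where adjusted p is under 0.05) and for the 4 genes (red). The relatives lie between −1.44 and 2.34, and the lowest of the 4 at 3.17. The 4 were chosen on this same difference, so nothing is read from the gap.

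Neighbouring genes on the chromosome were also looked at, in RefSeq order (GRCm38.p6). Of the 16 nearest genes, 2 on each side of each of the 4, the table held 11 and only 1 passed the filter. It was Zfp862-ps, a transcribed pseudogene beside Sspo, which fell with AOA from 62.0 to 45.8 CPM (log2 fold change −0.44, edgeR adjusted p = 2.97e-06). The other 10 had at most 4 counts summed over the HT-DNA+AOA libraries. The nearest protein-coding genes, a rule added after the values were seen, were within 0.31 of 0 on the log2 scale where tested: Chd6 (−0.20, edgeR adjusted p = 0.0264) and Srsf6 (−0.31, 8.53e-07) beside Ptprt, Atp6v0e2 (0.17, 0.147) beside Sspo and Smc5 (0.30, 0.000185) beside Mamdc2.

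A long non-coding RNA gene inside Ptprt, Ptprtos, was also higher with AOA. It was chosen after its values were seen. Ptprtos stood at 68.6, 63.3 and 56.0 CPM in mock, at 59.6, 61.7 and 65.9 CPM in HT-DNA, at 121, 115 and 107 CPM in HT-DNA+AOA and at 68.5, 66.8 and 66.3 CPM in HT-DNA+AOA+Asp. The HT-DNA+AOA libraries were above the other 9. Ptprtos rose with AOA over HT-DNA by 0.87 on the log2 scale (SE 0.06, edgeR adjusted p = 3.59e-10) and fell by 0.76 when Asp was added (SE 0.06). The fall is given without a test, because both comparisons use the same HT-DNA+AOA libraries. It lies on the opposite strand to Ptprt, and none of its 3 annotated exons overlaps an exon of Ptprt. Whether the counting used strand is not given in the sources used here. Reads from intronic RNA of either gene therefore cannot be told apart.

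Markers of fibroblasts and of other cell types were set beside the 4 genes. Of 11 fibroblast markers 8 passed the filter, led by Vim and S100a4, while Thy1, Dcn and Lum, which many fibroblasts express, stood at no more than 0.120 CPM in any group. Their summed level was 5439 to 6048 CPM in HT-DNA and 4940.2 to 5077 CPM in HT-DNA+AOA, most of it Vim (3624 and 3043 CPM on average). Most of the 8 tested fibroblast markers fell with AOA over HT-DNA, where 26.5% of all genes tested fell and 25.5% rose. The collagen gene Col1a2 fell from 125 to 55.8 CPM (log2 fold change −1.16, edgeR adjusted p = 7.36e-12). Col1a1 (−0.37), Col3a1 (−0.24), Vim (−0.25), Pdgfra (−0.18) and Pdgfrb (−0.39) also fell past the threshold, and S100a4 (−0.10) did not pass. Only the fibronectin gene Fn1 rose, from 39.9 to 71.5 CPM (0.85, edgeR adjusted p = 7.37e-10). Col1a2 and Fn1 were named after their values were seen. The part of these markers in the levels of the 4 genes was not tested. Of 10 neural and ependymal markers, the tissue in which Ptprt and Sspo are best known, only Tubb3 was tested. The summed level of that list was 3.81 to 4.87 CPM in HT-DNA and 3.34 to 4.99 CPM in HT-DNA+AOA, with Rbfox3, Syt1, Olig2, Sox2 and Ccdc153 at 0 in the latter. Endothelial markers summed to 3.10 to 3.65 CPM in HT-DNA and 3.02 to 4.46 CPM in HT-DNA+AOA, and epithelial markers to 0.692 to 1.67 and 0.858 to 2.31 CPM. Of 8 macrophage and leukocyte markers 2 were tested, and nearly all of the sum was Cd68, a lysosomal membrane protein that fibroblasts also express. That sum was 246 to 253 CPM in HT-DNA, 319 to 360.2 CPM in HT-DNA+AOA and 245 to 255 CPM in HT-DNA+AOA+Asp, with Adgre1, Itgam and Cd3e among the markers at 0 in HT-DNA+AOA. It was thus highest in the same group as the 4 genes, and its part in their levels was not tested.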

How the data were processed

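RNA was extracted with TRIzol and sequenced, per the labels' protocols. The authors deposited estimated counts per gene (expected counts, with 14.4% to 16.6% of values per library not whole). Genome build, aligner, counter and strandedness are not given in the sources used. Counts were rounded. Entries with an identifier but no symbol (0.510% to 0.653% of counts) were kept. Genes were filtered with filterByExpr (minimum count 10, minimum total 15), which left 14694, and scaled with TMM in edgeR 4.0.16 (R 4.3.3). The 12 libraries entered 1 robust quasi-likelihood fit with a term per group (8 residual degrees of freedom), with Benjamini-Hochberg adjustment over all genes and a threshold of 0.05. The method was also run on counts simulated from the mock means and the fitted spread of these data. That is a favourable setting, and its outcome is not given here. Replicates differed by more than sampling noise (chi-square per degree of freedom 2.15 to 7.96). Correlations used log2 CPM with a prior count of 2. Intervals are at 95%.

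The 4 genes, the lists and the tests were chosen with earlier results of these data known. Named relatives are up to 3 per list with the largest change past the threshold and at least 1 CPM, and the paralogues Ptprk, Ptprm and Ptpru. Genes named after their values were seen are outside this rule and are marked so above. Similar genes are the 5 of highest r per gene.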

Additional observations from a re-analysis of the deposited data

How the results depend on the processing

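Over 7 settings that changed the scaling, filter, tool, samples or block, 140 fold changes of the 4 genes were compared. They cover the comparisons without a test of the 4 genes, and all moved by less than their SE in the main fit. No result changed direction past a threshold. With any 1 library left out, the log2 fold change of HT-DNA+AOA over HT-DNA was 3.69 to 4.35 for Ptprt, 3.39 to 4.08 for Sspo, 3.17 to 3.84 for Mamdc2 and 3.04 to 3.32 for Prr32. In HT-DNA+AOA+Asp against mock, Prr32 missed the threshold with no filter on low counts (−0.80, edgeR adjusted p = 0.0522), with DESeq2 1.42.0 (−0.80, adjusted p = 0.0611) and with only those 2 groups in the fit (−0.80, edgeR adjusted p = 0.0617). With a library left out its value ran from −1.09 to −0.63. The cause was not tested.

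Genes called in HT-DNA+AOA+Asp against HT-DNA numbered 2719, and 1689 to 3077 with a library left out. Of the 4 MAM domain genes tested, 1 was called in HT-DNA+AOA+Asp against mock (0 to 1 with a library left out). In that comparison 18.9% of all genes were called higher and 15.0% lower. In HT-DNA+AOA against HT-DNA 2 were called (1 to 2), beside 52.0% of all genes. In HT-DNA+AOA+Asp against HT-DNA+AOA 1 was called (1 to 2), beside 28.3% of all genes higher and 26.4% lower. Same-numbered replicates did not deviate together (correlations −0.15 to 0.05, and at most 2 of 3 correlated best with their own number). The main fit therefore treats samples as unpaired. Whether same-numbered samples shared a culture or batch cannot be read from these correlations. With the replicate block, the counts of called genes were 5729 for HT-DNA against mock, 7377 for HT-DNA+AOA against HT-DNA, 7781 for HT-DNA+AOA+Asp against HT-DNA+AOA, 2248 against HT-DNA, 4662 against mock and 8770 for HT-DNA+AOA against mock, and Mamdc2 stood at −1.09 (edgeR adjusted p = 0.00546) and Prr32 at −0.79 (0.0496) in HT-DNA+AOA+Asp against mock. Low counts outside HT-DNA+AOA limit the precision there.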
